A study of Rattus norvegicus with 22 samples.

Results

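Transcripts of 5 CC chemokines, Ccl2, Ccl7, Ccl12, Ccl20 and Ccl22, and of the chemokine receptor Ccr2 were followed in the rat cortex 24 h after penetrating ballistic brain injury (PBBI). The 6 genes were taken as a fixed list by symbol, out of 32545 gene identifiers counted, of which 23572 had counts. RNA from the cortex of both hemispheres of 11 rats gave 22 samples: 6 PBBI rats and 5 sham rats, each sampled ipsilaterally and contralaterally. The animals were adult male Sprague-Daley rats (the spelling of the labels), and all of them, sham included, carried electrodes for recording sleep and underwent the frontal surgery on the right side. PBBI rats received the probe and its inflated balloon, while sham rats underwent the remaining steps with no probe inserted. Tissue was bulk cortex, so fewer cells of a type and less RNA per cell cannot be told apart. Surgeries were spread over weeks, and no week could be entered as a batch.

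Chemokines are small secreted proteins that direct the migration of leukocytes through receptors coupled to G proteins. Ccl2, Ccl7 and Ccl12 bind Ccr2, the receptor by which inflammatory monocytes leave the bone marrow and enter injured tissue, and in the brain they are produced by glia, endothelium and infiltrating myeloid cells. Ccl20 binds Ccr6, a receptor of lymphocyte and dendritic cell subsets, and Ccl22 binds Ccr4, a receptor of regulatory and type 2 helper T cells. Ccl22 is made by macrophages and dendritic cells.

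Promoters of 5 of the 6 genes could be matched by symbol to RefSeq sequences of the assembly GRCr8, all except Ccl2. The 140 bases before the start of 4 ligand genes are shown, and no relation of their letters to the rise from sham to PBBI was tested. Capitals mark matches to any of 4 motifs searched on both strands of the 250 bases before each start: a kappaB motif spelled GGANNTTCC, an AP-1 motif spelled TGANTCA, the core promoter element TATAAA and a GC box spelled GGGCGG.
Ccl7, chr10:67513955-67514094, plus strand: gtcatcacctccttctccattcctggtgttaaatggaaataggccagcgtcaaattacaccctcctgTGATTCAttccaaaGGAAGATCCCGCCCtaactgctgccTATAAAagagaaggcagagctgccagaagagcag
Ccl12, chr10:67567736-67567875, plus strand: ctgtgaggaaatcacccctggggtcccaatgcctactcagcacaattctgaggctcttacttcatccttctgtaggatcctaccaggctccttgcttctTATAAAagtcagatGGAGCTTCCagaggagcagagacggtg
Ccl20, chr9:91837019-91837158, plus strand: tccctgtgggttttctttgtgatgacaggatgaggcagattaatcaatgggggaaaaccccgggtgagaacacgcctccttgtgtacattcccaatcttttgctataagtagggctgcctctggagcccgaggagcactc
Ccl22, chr19:10270360-10270499, minus strand: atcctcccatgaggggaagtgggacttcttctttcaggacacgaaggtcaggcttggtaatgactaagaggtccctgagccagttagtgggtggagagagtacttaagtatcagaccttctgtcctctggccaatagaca
Ccl7 held all 4 motifs, with AP-1 at positions -73 to -67 and kappaB at -59 to -51 counted from the start, the latter sharing 1 base with the GC box. Ccl12 held a TATA box at -41 to -36 and a kappaB match at -27 to -19. Ccl20, Ccl22 and Ccr2 held no match to these 4 spellings in their 250 bases. Other spellings of the motifs were not searched, so a site written otherwise would be missed. Of the 33469 promoters in the table, 3.36% held the kappaB motif, 6.34% the AP-1 motif, 12.9% the TATA box and 30.5% the GC box. Such matches describe the letters of these windows and no factor was measured on them.

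Total counts were between 42085341 and 63412426 per sample. The ipsilateral sample of PBBI rat 85 stood apart, with a mean correlation of 0.835 with its own group against 0.933 to 0.943 for the other 5. Both samples of PBBI rat 81 and the contralateral sample of sham rat 82 carry PFC in their titles where the others carry CC or CI, and a difference in dissection was not tested. Levels are given as CPM, counts scaled to the sample's total, with totals adjusted by the trimmed mean of M values (TMM). CPM per kilobase (kb) of gene model was used for the order of levels and the shares of ligands, and other ratios between genes are of counts as stated. The Ccr2 model has 286 bases against 677 to 1745 for the ligands, so its counts rest on a short stretch.

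The 3 ligands of Ccr2 were higher in the injured cortex of every PBBI rat than in any sham cortex. Mean CPM of Ccl7 was 192.3 times that of sham, Ccl2 125.3 times and Ccl12 14.8 times. Without sham rat 94, which had the highest sham level of Ccl2, the ratio was 212.9 for Ccl2, 204.6 for Ccl7 and 17.4 for Ccl12. Ccl20 also rose past the threshold, with a wider spread between rats. Ccl22 and Ccr2 had too few counts for the main test and are given by their counts. Of the 6 members, 4 passed the filter on low counts, Ccl20 through its PBBI counts alone, and these were called higher at an adjusted p of 0.05 or less, as were 4.09% of the 16104 genes tested (edgeR's quasi-likelihood test with Benjamini-Hochberg adjustment). With no filter 5 of 6 members were called higher, against 2.67% of 22670 genes.

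Ccl2 (ENSRNOG00000007159), the best known monocyte attractant of the group, had 26300 counts in rat 81, 1713 in rat 83, 7945 in rat 85, 16093 in rat 88, 8926 in rat 90 and 10166 in rat 96 on the injured side. The sham counts of the same hemisphere were 41, 63, 36, 36 and 238. Rat 83 was the lowest of the injured rats and rat 94 the highest of the sham rats, and the groups did not overlap. PBBI cortex averaged 185.5 ± 130.2 CPM (SD, n = 6) and sham cortex 1.48 ± 1.38 CPM (SD, n = 5). The fitted log2 difference was 6.96 (SE 0.82, adjusted p = 0.0014 from edgeR). By mean CPM per kb, Ccl2 ranked 385 among 16587 genes in the ipsilateral PBBI samples and 11392 in the ipsilateral sham samples.

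Ccl7 (ENSRNOG00000000239), which also engages Ccr1, had 7295, 630, 1054, 5894, 3602 and 1644 counts in rats 81, 83, 85, 88, 90 and 96. Sham rats had between 6 and 22. Mean CPM was 51.0 ± 41.1 (SD, n = 6) against 0.265 ± 0.118 (SD, n = 5), a log2 fold change of 7.57 (SE 0.77, adjusted p = 0.000965 from edgeR). Only 1 of the 16104 genes tested had a higher fitted fold change. Ccl2 stood at place 6 in that order, Ccl20 at 16 and Ccl12 at 83. Without sham rat 94 the fitted log2 fold change was 7.67 for Ccl7 and 7.74 for Ccl2, so the order of Ccl7 and Ccl2 depended on that rat.

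Ccl12 (ENSRNOG00000029768), known in rodents as a further Ccr2 ligand, had 411, 229, 436, 194, 643 and 465 counts in the same 6 rats and between 8 and 42 in sham. It varied least between injured rats, with a highest CPM 3.53 times the lowest, against 12.3 times for Ccl7 and 16.4 times for Ccl2. PBBI cortex averaged 6.32 ± 2.90 CPM (SD, n = 6) and sham cortex 0.429 ± 0.285 CPM (SD, n = 5). The fitted log2 difference was 3.89 (SE 0.58, adjusted p = 0.00378 from edgeR). Ccl2, Ccl7 and Ccl12 were each higher in all 6 PBBI samples than in all 5 sham samples, which held for 3.5% of all genes tested. The exact permutation test over all splits of the 11 rats gave its smallest two-sided p, 0.00433, for each of the 3. Without rat 85 the fitted log2 fold changes were 6.97 for Ccl2, 7.72 for Ccl7 and 3.71 for Ccl12, and all 3 passed.

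Ccl20 (ENSRNOG00000015992) had 635 counts in rat 81, 16 in rat 83, 60 in rat 85, 58 in rat 88, 207 in rat 90 and 6 in rat 96, and between 0 and 4 in sham rats. Rat 81 held most of the counts, and rat 96 lay within the sham range as CPM. The log2 fold change was 5.96 (SE 1.36, adjusted p = 0.0275 from edgeR), and the exact permutation test gave p = 0.00866. The call was lost without any 1 of 10 rats and remained only without rat 96. In 6 of these 11 fits Ccl20 passed the count filter, with adjusted p from 0.0211 to 0.0795 (edgeR) and fold changes of 5.61 to 6.56 on the log2 scale, and in the other 5 it was not tested.

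Ccl22 (ENSRNOG00000016535) had 76, 0, 14, 8, 30 and 22 counts in rats 81, 83, 85, 88, 90 and 96, and 0 in all 5 sham samples of that side. Against a floor of 3 counts over the sham group, pooled counts relative to depth were at least 34.4-fold higher in PBBI. This bound covers counting error only and not the spread between rats, and rat 81 held 76 of the 150 pooled counts. Contralateral sham samples had 2 to 4 counts each. Low counts were mostly even, and if each fragment had been counted by both mates the bound would be at least 17.2-fold. By exact permutation p was 0.026, with 5 of 6 PBBI rats above every sham rat. Without the count filter, edgeR gave Ccl22 an adjusted p of 0.0419. Without any 1 of the 5 sham rats it passed the filter, with adjusted p of 0.0817 to 0.0941 (edgeR).

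Ccr2 (ENSRNOG00000059979) had 11, 8, 0, 7, 7 and 28 counts in the same rats and 0, 2, 0, 0 and 1 in sham. The summed counts of 61 and 3 correspond to a ratio of 14.0, with an exact 95% interval of 4.57 to 69.8 that covers counting error only. With counts halved the interval was 2.72 to 92.0. The lone PBBI sample at 0 was the library of rat 85. The exact permutation test gave p = 0.026 with all 11 rats, and 0.00794 to 0.0476 without any 1 rat. The lowest value came without rat 85. Without the count filter the adjusted p from edgeR was 0.106, so Ccr2 did not pass across all genes.

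**Figure D1:**
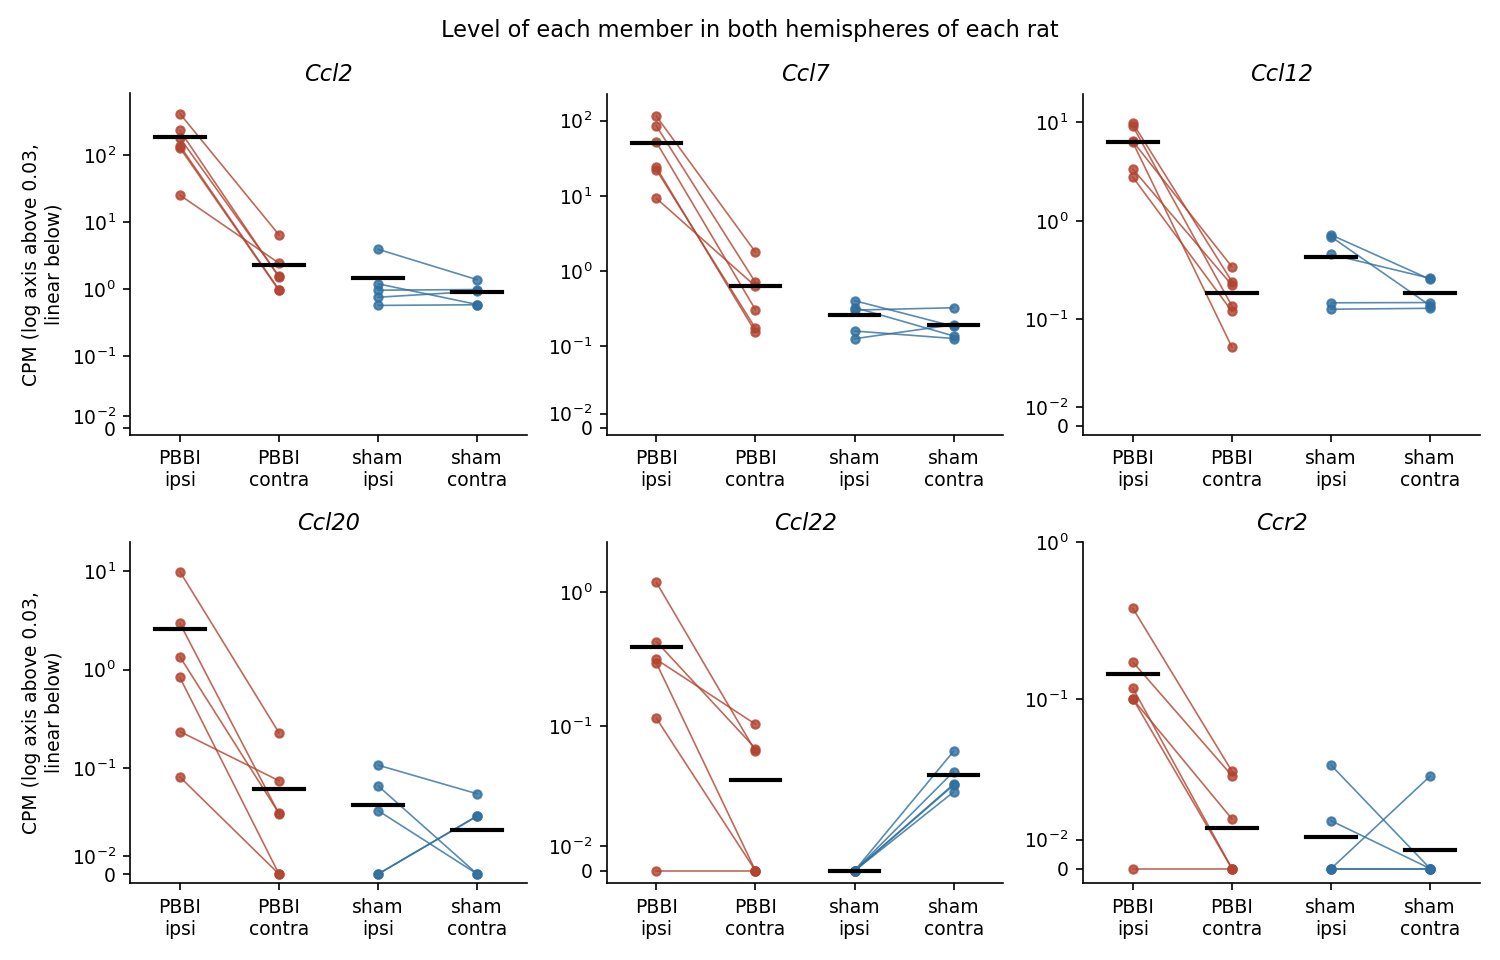
CPM of the 6 genes in each sample (points), with lines joining the hemispheres of the same rat and black bars for group means. The y axis is logarithmic above 0.03 CPM and linear below. Ipsilateral PBBI values of Ccl2, Ccl7 and Ccl12 lie above all sham values, while Ccl20, Ccl22 and Ccr2 have 1 PBBI rat each within the sham range.

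Within the injured cortex mean CPM per kb was 222.2 for Ccl2, 59.98 for Ccl7, 9.34 for Ccl12, 3.26 for Ccl20, 0.507 for Ccr2 and 0.224 for Ccl22. Ccl2 exceeded Ccl7, and Ccl7 exceeded Ccl12, in 6 of 6 rats. Ccl12 exceeded Ccl20 in 5 of 6, Ccl20 exceeded Ccr2 in 4 of 6 and Ccr2 exceeded Ccl22 in 4 of 6, so the lower neighbours were not separated in every animal. The whole order held in 2 of 6 rats, 88 and 90. In sham cortex of the same side the order differed, with Ccl12 above Ccl7 in 4 of 5 rats.

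On the contralateral side, no member passed the threshold. Ccl2 had 395, 131, 90, 100, 56 and 56 counts in PBBI rats 81, 83, 85, 88, 90 and 96, and between 36 and 60 in sham rats, so that 4 of 6 PBBI samples lay above every sham sample as CPM. The log2 fold change was 1.38 (SE 0.51, unadjusted p = 0.0173 and adjusted p = 1 from edgeR), and the exact permutation test gave p = 0.0303. Ccl7 had 110, 34, 9, 47, 18 and 10 counts in the PBBI rats and 6 to 20 in the sham rats. The fitted log2 difference was 1.68 (SE 0.62, adjusted p = 1 from edgeR) with p = 0.0866 by exact permutation. Contralateral Ccl12 counts ranged from 3 to 21 after PBBI and from 6 to 16 in sham rats, at a fitted log2 difference of -0.01 (SE 0.45, adjusted p = 1 from edgeR).

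Rat 81 was the highest contralateral sample for Ccl2, Ccl7, Ccl12 and Ccl20, as it was ipsilaterally for Ccl2, Ccl7, Ccl20 and Ccl22. Without rat 81 the contralateral log2 fold change of Ccl2 was 0.73, and the exact permutation p was above 0.05 without any 1 of 7 rats, reaching 0.0667. Contralateral Ccl20 had 14, 4, 2, 0, 2 and 0 counts in PBBI and between 0 and 3 in sham. Ccl22 counts ranged from 0 to 6 after PBBI and from 2 to 4 in sham rats, and Ccr2 had at most 2 in any contralateral sample. Of 15907 genes tested contralaterally, 0% were higher by edgeR, with 366 at an unadjusted p under 0.05 in either direction, 0 calls by DESeq2 with its prior, 3 without it and 1 by limma voom with quality weights. Every contralateral PBBI sample lay above every sham sample for 0.0943% of the genes tested and for none of the 3 members tested, Ccl2, Ccl7 and Ccl12.

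The injury effect on the Ccr2 ligands was larger on the injured side than on the other. In the fit of all 22 samples, the ipsilateral effect exceeded the contralateral effect by 5.58 on the log2 scale for Ccl2 (SE 0.89), 5.90 for Ccl7 (SE 0.94) and 3.90 for Ccl12 (SE 0.71), with adjusted p of 0.0155, 0.0155 and 0.0238 from edgeR. Ccl20 differed by 4.73 (SE 1.94, adjusted p = 0.378 from edgeR). Hence 3 of 4 members passed, against 0.307% of 16587 genes. With no filter 3 of 6 members passed, against 43 of 23572 genes called higher. With the rat as a replicate block, which pairs both hemispheres of an animal, the same 3 passed with values of 5.88, 5.96 and 4.06 (adjusted p = 0.00234, 0.00234 and 0.00545 from edgeR), against 2.95% of all genes. Without the block all 3 calls were lost when any 1 of sham rats 82, 84, 86 and 91 or PBBI rats 88 and 90 was left out, and 1 call remained without sham rat 94 (Ccl2) or PBBI rat 96 (Ccl7). With the block they remained without any single rat. Without rat 85 the values were 5.48, 5.83 and 3.80 with no block.

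Within each rat, the ipsilateral minus contralateral difference in log2 CPM of Ccl2 was between 3.35 and 7.23 in the PBBI rats and between -0.28 and 1.48 in the sham rats. For Ccl7 the ranges were 3.80 to 7.24 and -0.51 to 1.08, and for Ccl12 they were 3.73 to 6.19 and -0.02 to 2.08. None of these ranges overlapped between treatments. That of Ccl22 did not overlap either (0 to 3.62 against -1.54 to -0.96), but it rests on counts at or near the floor. Sham rats had 0 counts of Ccl22 ipsilaterally and 2 to 4 contralaterally, and PBBI rat 83 had 0 on both sides. The exact permutation p was 0.00433 for these 4 genes. The share of all genes without such overlap was not computed. Ccl20 and Ccr2 overlapped, with p = 0.00866 and 0.0303 by exact permutation. For Ccr2 this p was above 0.05 without any 1 of 6 rats (at most 0.0667).

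**Figure D2:**
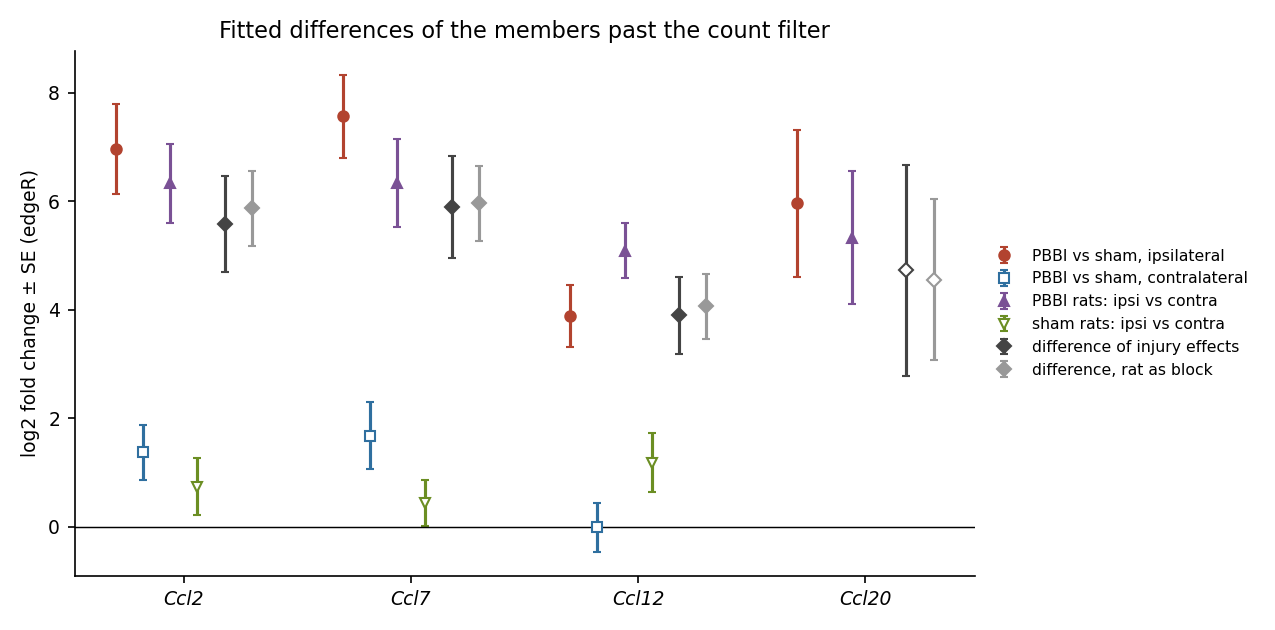
Log2 fold changes from edgeR (points) with their standard errors (bars) for the 4 members that passed the count filter. Filled symbols have an adjusted p of 0.05 or less and open symbols do not. Ipsilateral values run from 3.89 (Ccl12) to 7.57 (Ccl7), and contralateral values from -0.01 to 1.68.

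In the PBBI rats alone, the injured side was higher than the uninjured side for Ccl2 (6.33, SE 0.73), Ccl7 (6.33, SE 0.81), Ccl12 (5.09, SE 0.50) and Ccl20 (5.33, SE 1.23), with adjusted p of 0.006, 0.00755, 0.00183 and 0.0332 from edgeR. Among all genes tested, 2.97% of 15973 were higher. Ccl20 passed the filter through its ipsilateral counts, and with no filter 4 of 6 members were called, against 1.83% of 22890 genes. All 4 also passed with the rat as a block, against 6.68% of genes. All 6 rats had the higher value ipsilaterally for these 4 genes, and 5 of 6 did for Ccl22 and Ccr2, where the remaining rat had 0 counts on both sides. The exact sign-flip permutation test gave its smallest p, 0.0312, for the 4 genes, and 0.0625 for Ccl22 and Ccr2. All 4 members passed without rat 85. Without rat 88 and without the block, Ccl12 alone passed, and Ccl2 and Ccl7 had adjusted p of 0.0583 (edgeR). Leaving out 1 rat without the block, Ccl20 was tested in 5 fits and passed in 2, with adjusted p from 0.0374 to 0.145 (edgeR). With the block it passed in all 5, with adjusted p of at most 0.0463 (edgeR).

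In the sham rats, the side of the surgery had no member past the threshold, and 0% of 15747 genes were higher by edgeR, with 47 at an unadjusted p under 0.05 and 0 calls by DESeq2 and by limma voom. Ccl12 had the highest difference of the members tested, 1.18 (SE 0.54, unadjusted p = 0.0488, adjusted p = 1 from edgeR), and was higher ipsilaterally in 3 of 5 rats. Sham rat 94 had 238 counts of Ccl2 ipsilaterally against 60 contralaterally. Ccl22 had 0 counts ipsilaterally in all 5 sham rats and 2, 4, 2, 2 and 2 contralaterally, all at or near the floor of 3 counts. With 5 rats the sign-flip permutation test cannot fall below 0.0625.

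The mixture of Ccr2 ligands shifted with injury. In the injured cortex Ccl2 made up 65.5% to 83.5% of the summed CPM per kb of Ccl2, Ccl7 and Ccl12, Ccl7 10.9% to 26.7% and Ccl12 1.08% to 10.8%. In sham cortex of the same side, Ccl12 made up 13.6% to 44.3%, above the share in any injured cortex. Ccl7 made up 6.35% to 29.8% in sham, a range that spans that of PBBI.

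Expressed within each sample as the log2 ratio of counts (2 added to each), Ccl12 to Ccl2 had a median of -4.31 in PBBI and -1.93 in sham ipsilaterally, a difference in means of -2.97. The exact permutation test gave p = 0.00433, or 0.0173 adjusted over the 4 ratios tested, a test chosen after the values were seen. Contralaterally the medians were -3.30 and -1.93, with a difference of -1.19 (exact permutation p = 0.0173, adjusted 0.0346), although the PBBI and sham ranges overlapped and Ccl12 had 3 to 21 counts there. Both differences kept p under 0.05 by exact permutation without any single rat. The ratio of Ccl7 to Ccl2 differed by 0.13 ipsilaterally and 0.05 contralaterally (exact permutation p = 0.771 and 0.935).

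**Figure D3:**
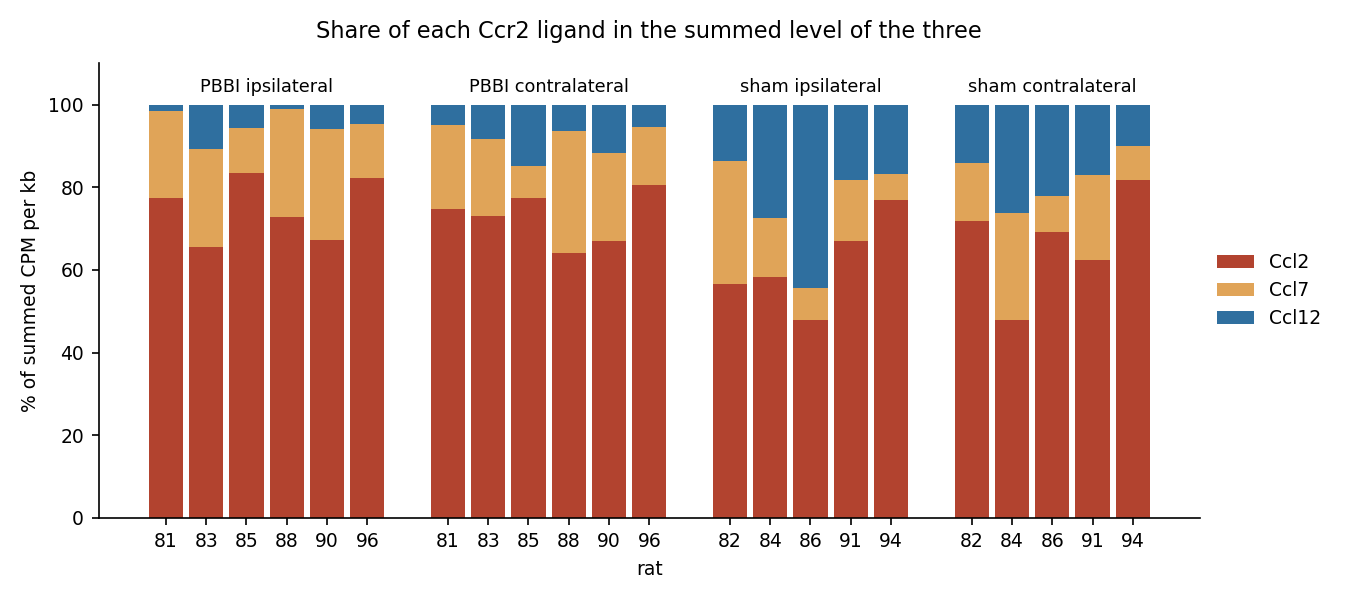
Share of Ccl2, Ccl7 and Ccl12 (colours) in the sum of their CPM per kb, as a percentage, for each rat (bars) in the 4 groups. Ccl12 reaches at most 10.8% in ipsilateral PBBI samples and at least 13.6% in ipsilateral sham samples.

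Ligand counts exceeded receptor counts in every injured sample, and the balance differed between rats. The summed counts of Ccl2, Ccl7 and Ccl12 were 3091 per count of Ccr2 in rat 81, 321.5 in rat 83, 3169 in rat 88, 1882 in rat 90 and 438.4 in rat 96. In rat 85 there were 9435 ligand counts and 0 of Ccr2. Per kb of gene model, where the Ccr2 model has 286 bases and may miss part of the transcript, the ratios were 1058, 111.9, 1082, 648.7 and 151.1 in rats 81, 83, 88, 90 and 96. Rats 83 and 96 had the lowest ratios. Rat 83 had the fewest ligand counts, 2572, and rat 96 the most Ccr2 counts, 28. In sham samples of the same side there were 52 to 300 ligand counts with 0 to 2 of Ccr2, so the ratio could be formed in 2 samples only, at 51.5 and 300.0. With 2 added to each count, the median log2 ratio was 10.9 in ipsilateral PBBI, 5.15 in ipsilateral sham, 6.07 in contralateral PBBI and 5.21 in contralateral sham. These ratios were not tested, and the last 3 rest on at most 2 Ccr2 counts a sample.

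**Figure D4:**
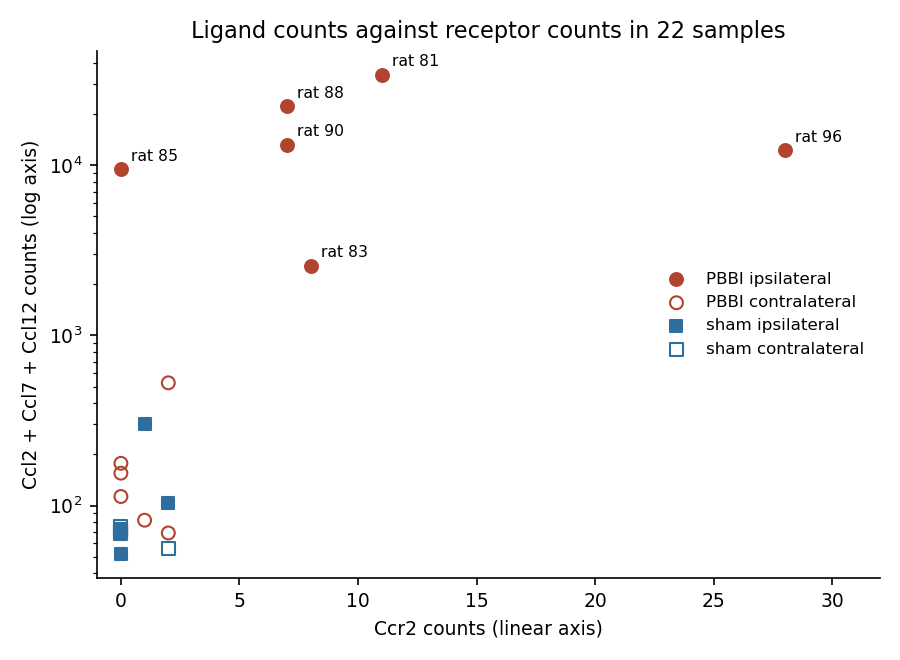
Summed counts of Ccl2, Ccl7 and Ccl12 (log axis) against Ccr2 counts (linear axis) in the 22 samples, with symbols for the 4 groups. Injured samples have 2572 to 34006 ligand counts and 0 to 28 of Ccr2, and no other sample exceeds 526 ligand counts or 2 of Ccr2.

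Ccr4, the receptor of Ccl22, had 10, 2, 2, 2, 4 and 3 counts in rats 81, 83, 85, 88, 90 and 96 on the injured side and 0 in all ipsilateral sham samples. Rats 81 and 90 were the highest for both Ccl22 and Ccr4. Ccr1, an alternative receptor of Ccl7, had 856, 102, 40, 150, 151 and 640 counts in these rats against 16 to 36 in sham. Its log2 fold change was 3.26 (SE 0.76, adjusted p = 0.0299 from edgeR), and rats 81 and 96 stood highest, as they did for Ccr2. Ccr6, the receptor of Ccl20, could not be named in the count table and is left aside.

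Between the injured rats, the members followed different orders. Rat 81 was highest for Ccl2, Ccl7, Ccl20 and Ccl22, rat 85 for Ccl12 and rat 96 for Ccr2. Rat 88 was second highest for Ccl7 and lowest for Ccl12, with 84.8 and 2.79 CPM. Rat 96, highest for Ccr2, was lowest for Ccl20.

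Across the 6 ipsilateral PBBI samples, 15 pairs of members were correlated on log2 CPM. Ccl2 and Ccl7 had the highest coefficient, with Pearson's r = 0.87 (exact permutation p = 0.025, adjusted 0.375) and Spearman's rho = 0.83 (exact permutation p = 0.0583, adjusted 0.438). Without rats 81 and 83, which lay farthest from the median of Ccl2, r was 0.48, so this relation rests on those rats. None of the 15 pairs passed after adjustment by either coefficient, and 1 had an unadjusted permutation p of r under 0.05. Ccl20 and Ccl22 had r = 0.67 and rho = 0.83 (exact permutation p = 0.142 and 0.0583), and r was 0.98 without rats 81 and 96. Ccr2 had r between -0.31 and 0.09 with each of the 5 ligands, with at most 28 counts behind its values.

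**Figure D5:**
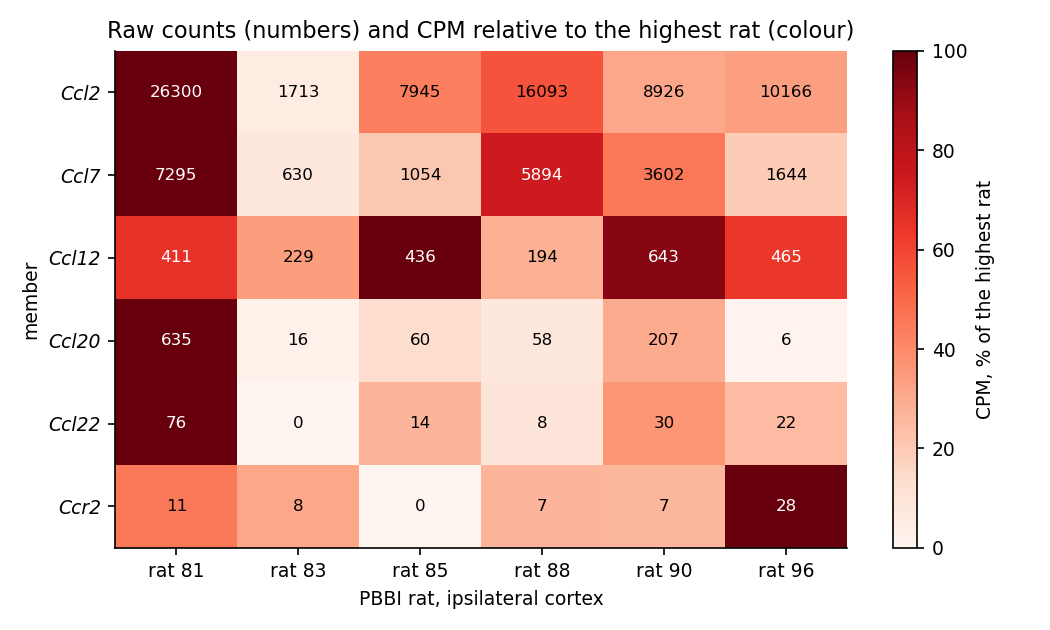
Raw counts (numbers) of each member (rows) in the ipsilateral cortex of the 6 PBBI rats (columns), coloured by CPM as a percentage of the rat with the highest value. Rat 81 is darkest for Ccl2, Ccl7, Ccl20 and Ccl22, rat 85 for Ccl12 and rat 96 for Ccr2.

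Over all 22 samples, the named genes most like Ccl2 in log2 CPM were Ncf4, a subunit of the phagocyte NADPH oxidase (r = 0.98), Ccl7 (0.97), the epithelial membrane protein gene Emp1 (0.97), the actin-binding Tagln2 (0.96) and Emp3 (0.96). Ccl12 stood at place 51 of 16586 genes (r = 0.93) and Ccl20 at 280 (0.87). Most like Ccr2 were Ms4a12 (0.90), the C-type lectin Clec4a1 (0.88), a gene with a clone-based name (0.88), Vav1, a guanine nucleotide exchange factor of blood cells (0.87), and the leukocyte myosin Myo1f (0.86). Ccl7 was at place 332 of 16587 in likeness to Ccr2 (0.75) and Ccl2 at 420 (0.73). The 22 points share the difference between groups, and names come from the study's lists of called genes, so these coefficients describe the samples and carry no test.

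Other genes of the pathway were described from lists set by known function, in which only genes named in those same lists of called genes could enter, so that their direction is not independent evidence. Of the 1684 named genes tested ipsilaterally, 38.3% were called higher, against 4.09% of all genes. Of 18 named inducers and regulators of Ccl2, 12 rose and 0 fell on the injured side, with a median log2 fold change of 1.97 against -0.02 over all genes tested (edgeR, adjusted p of 0.05 or less). They included Fosl1, an AP-1 subunit (5.11), the cytokines Lif (5.13) and Osm (3.56) and Il1b, interleukin-1 beta (3.40). Of 8 other chemokine ligands, 5 rose, among them the neutrophil attractants Cxcl3 (6.41) and Cxcl1 (5.26), with Ccl4 (3.62) and Ccl6 (2.33). Cxcl12 (-1.16) and Cx3cl1 (-0.78), chosen for mention after their values were seen, had negative values and did not pass. Of 3 other chemokine receptors tested, Ccr1 and Cxcr4 (1.86) rose. Contralaterally, 0 of these genes passed by edgeR.

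Some markers of cell types also differed in the injured cortex, and whether they varied with the chemokines was not tested. Of 11 named markers of monocytes and macrophages (22 in the list), 5 rose ipsilaterally, beside 38.3% of all named genes, and the highest fold changes among these were in Cd14, a lipopolysaccharide co-receptor (5.17), the integrin subunits Itgal (2.76) and Itgam (2.58) and fibronectin, Fn1 (2.56). Their summed level was 309.6 to 1592 CPM in ipsilateral PBBI, highest in rats 81 and 96 and lowest in rat 83, against 163.2 to 283.8 in ipsilateral sham, 186.8 to 291.9 in contralateral PBBI and 181.0 to 210.6 in contralateral sham. None of the 11 was at 0 in every sample of a group. Their part in the ligand and receptor values was not tested.

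Some markers of other leukocytes passed the test in the injured cortex, where 38.3% of all named genes tested were called higher. Of 5 neutrophil markers tested, Lcn2 (3.79) and Mmp9 (2.55) rose, and the sum of the 7 named of 13 was 34.1 to 253.7 CPM in PBBI against 10.4 to 62.2 in sham, where Elane was at 0. These ranges overlapped, with PBBI rat 83 below sham rat 94, the sham rat with the most Ccl2. Of 5 dendritic cell markers, Itgax (4.97), Batf3 (2.65) and Clec9a (2.30) rose, while Flt3 had -1.003 (adjusted p = 0.125 from edgeR), with a sum of 9.04 to 22.2 CPM against 5.53 to 7.09. Of 3 T cell markers tested, Cd8a rose (3.31), with a sum over 4 named genes of 2.85 to 10.5 CPM against 0.254 to 2.14.

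The same share, 38.3% of named genes called higher, stands beside the counts that follow. Of 4 microglial markers, C1qc (1.51) and C1qb (1.32) rose and Siglec5 fell by 1.84, while Tmem119 had -0.92 (adjusted p = 0.0799 from edgeR). The median of the 4 was 0.20, with sums of 164.5 to 376.7 CPM in PBBI and 91.0 to 186.4 in sham. Both named endothelial markers rose, Icam1 (1.87), the leukocyte adhesion molecule, and Vwf (1.24), with sums of 36.1 to 72.6 against 13.6 to 22.7 CPM. Of 4 astrocyte markers, Gfap (2.99) and Vim (2.89) rose and Aldh1l1 fell by 0.96, while Gjb6 had -1.53 (adjusted p = 0.12 from edgeR). The sum of the 4 was 2223 to 7415 CPM in PBBI against 461.1 to 1037 in sham. Gfap made up most of this sum, with a mean of 4563 CPM in ipsilateral PBBI and 575.2 in ipsilateral sham. The choroid plexus marker Kl had a log2 fold change of -0.09 and did not pass. Contralaterally Kl was 39.7 CPM in PBBI rat 88 and between 0.130 and 0.570 in the other PBBI rats. That sample of rat 88 had 1.51 CPM of Ccl2, 0.709 of Ccl7 and 0.121 of Ccl12. Ccl20, Ccl22 and Ccr2 were at 0 counts in it, as in some other contralateral PBBI samples. Whether its Kl level bears on these values was not tested. No neuron or oligodendrocyte marker was named, so the cortical origin was not checked by those genes, and the part of these cell types in the chemokine values was not tested.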

How the data were processed

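RNA-seq counts of 22 cortical samples (11 rats) were analysed. Stranded, ribosomal RNA-depleted libraries were sequenced from both ends by the authors, who aligned with STAR 2.4.2a to Rnor_6.0 and counted on Ensembl genes with featureCounts 1.4.3-p1 (versions per the submitters' processing notes), and the counts they deposited are raw. Strand and multimapping settings are not given in the sources used here. Even numbers made up 60.8% to 69.6% of low counts (1 to 19), as if both mates of some fragments were counted, which was not tested. Reads carry no molecular identifiers, so floors (3 counts over a group) and intervals cover counting error only.

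Groups came from the labels. Symbols came from the study's lists of called genes (1822 identifiers). The members and lists were chosen with earlier results of these data known. The main test was edgeR 4.0.16 (R 4.3.3), quasi-likelihood, TMM, filterByExpr, threshold 0.05, per hemisphere as in the study's methods, with other fits over all samples or within a treatment. A fit whose filter a gene did not pass gives it no value. The standard error is the fold change divided by the square root of F. A prior count of 2 entered log2 CPM. Exact permutation tests (scipy 1.17.1) are two-sided; 24 were run on members, and their p-values are unadjusted. Labels call rats separate animals, so replicates are biological.

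Both samples of a rat come from the same animal and deviated together (correlations of 0.246 to 0.758 in 11 rats), so a paired fit with the rat as a replicate block was an alternative. Also tried were RLE size factors, limma 3.58.1 voom with quality weights, DESeq2 1.42.0 (with its prior, and without), omitting the filter, requiring 10 counts in every sample, all 22 samples together, prior counts of 0.5 and 5, and leaving out each rat. Block fits without each rat, the ligand ratio tests, halved counts, ratios per kb and the mean fold without sham rat 94 were added after seeing the data. Named genes are the members, the 5 named genes most correlated with Ccl2 and with Ccr2, and Ccr1 and Ccr4. Up to 4 genes per list with the largest fold change past the threshold are also named. Flt3, Tmem119, Gjb6, Cxcl12, Cx3cl1, Elane and Kl were named after their values were seen. The tests were tried on simulated counts. Promoters are from RefSeq (GRCr8).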

Additional observations from a re-analysis of the deposited data

Results flagged for a closer look

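The effect of injury differed between hemispheres by edgeR's test of that difference for Ccl2 (5.58 on the log2 scale), Ccl7 (5.90) and Ccl12 (3.90), all larger ipsilaterally. Ccr2 in the contralateral sham samples had 1 sample apart from the rest: rat 91 had 2 counts and the other 4 rats had 0, so the gap was the whole range (a ratio of 1.0 against a critical value of 0.71). At 2 counts this is under the floor of 3. Of 24 groups of a member examined for such a sample, 1 stood out. The expectation of about 1 in 20 by chance does not allow for ties at 0. With 4 rats at 0 the ratio is 1.0 for any remaining count above 0, so no conclusion is drawn from that expectation.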

How the results depend on the processing

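Ipsilaterally Ccl2, Ccl7 and Ccl12 passed in every edgeR, DESeq2 and voom fit in which they were tested, with Ccl2 from 4.94 to 7.74, and all 4 members passed under RLE size factors, DESeq2, voom and the fit of all 22 samples. Requiring 10 counts in every sample left Ccl2 alone tested, so that 1 member passed ipsilaterally, 1 in the difference between hemispheres and 1 within PBBI rats. Without 1 rat, the members passing were 3 to 4 members ipsilaterally, 0 to 3 for the difference between hemispheres and 1 to 4 within PBBI rats. With the replicate block and all rats the last 2 counts were 3 and 4, for the same members as without the block. When any 1 rat was left out, they were 3 to 4 each with the block. Ccl20 passed for the difference between hemispheres only with DESeq2 and its prior or, with the block, without rat 83.

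The share of all genes with an exact permutation p under 0.05 was not computed. By edgeR, 2724 of 16104 genes had an unadjusted p under 0.05 ipsilaterally, in either direction. By exact permutation, 6 members had an unadjusted p under 0.05 ipsilaterally throughout. Contralaterally the number of members was 1, and 0 to 1 without 1 rat. Within PBBI rats it was 4, and 0 without any rat, where 5 rats cannot give a p below 0.0625. The contralateral fold change of Ccl12 was -0.11 to 0.18 without 1 rat and turned positive without sham rat 84 (0.17) or 86 (0.13) or PBBI rat 88 (0.09), 90 (0.06) or 96 (0.18), and its mean log2 CPM difference (-0.29 to 0.14) without 84 (0.01), 86 (0.0072) or 96 (0.14). The Ccl7 to Ccl2 ratio differed by -0.21 to 0.44 ipsilaterally and -0.19 to 0.35 contralaterally, and turned lower in PBBI ipsilaterally without sham rat 94 (-0.21) and contralaterally without sham rat 86 (-0.12) or 94 (-0.19) or PBBI rat 88 (-0.13) or 90 (-0.03). None of these values passed a test.

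Without the 2 farthest samples, r changed sign for Ccl2 with Ccl12 (-0.71) and Ccl22 (-0.89), Ccl7 with Ccl12 (-0.67) and Ccl22 (-0.59), Ccl12 with Ccl22 (-0.42) and Ccl22 with Ccr2 (-0.0692). Spearman's rho had the other sign from r for Ccr2 with Ccl2 (0.0857), Ccl7 (-0.0857) and Ccl22 (-0.0857), as did r with a prior of 0.5 for Ccl22 with Ccr2 (-0.0244). With 0.5 instead of 2 added to the counts, the median log2 ratio of summed ligands to Ccr2 was 7.12 in ipsilateral sham, 7.77 in contralateral PBBI and 7.18 in contralateral sham. The cause of these changes was not tested. Ccl22 and Ccr2 had 0 to 6 counts outside the injured cortex, which limits the precision of their ratios.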
